A study of Homo sapiens and Mus musculus with 13 samples.

Results

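The TRIM family (tripartite motif) of ubiquitin ligases was followed by RNA-seq in 7 lines of human MDA-MB-231 breast cancer cells and in 6 mammary tumors of MMTV-PyVT mice. Members were all symbols made of TRIM (human) or Trim (mouse), a number and at most 1 letter, with a mean of at least 0.5 FPKM (fragments scaled to transcript length and library size) over the libraries of their table. The human table held 66 such symbols, of which 38 passed, among 12636 genes that passed of 24523 symbols. The mouse table held 68, of which 39 passed, among 17328 genes that passed of 55228 symbols.

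TRIM proteins carry a RING finger, 1 or more B boxes and a coiled coil, followed by a C-terminal part that differs between subgroups and recruits the substrate. The RING finger passes ubiquitin from an E2 enzyme to the substrate, and members that lack a RING act mostly as adaptors or join RING-bearing partners. Many members with a PRY-SPRY domain restrict viruses or tune innate signaling and are induced by interferon, others of that subgroup, TRIM11 among them, control the stability of nuclear proteins, and the PHD and bromodomain members (TRIM24, TRIM28 and TRIM33) act on chromatin.

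The study asked how the TRIM11 ligase and the histone H3K4 demethylase KDM5C act on each other in breast cancer. All 7 human lines carried Cas9. Control had a GFP guide, TRIM11-KD1 and TRIM11-KD2 each had 1 TRIM11 guide, KDM5C-KD1 and KDM5C-KD2 each had 1 KDM5C guide, and the double knockdown lines DKD1 and DKD2 joined TRIM11 guide 1 or guide 2 to KDM5C guide 2. These were puromycin-selected lines of infected cells, with 1 library per line, so 2 lines of a knockdown differ in guide as well as in culture. The mice, 3-month-old, were offspring of FVB/N-Tg (MMTV-PyVT) crossed with C57BL/6N, in which the MMTV promoter drives the polyoma middle T antigen in the mammary epithelium. Tumors came from 3 Trim11+/+ and 3 Trim11+/- mice, the latter lacking exons 2 to 6 of 1 Trim11 allele in the whole body, and the strain numbers of the labels, which run in series from 634Mul/J to 639Mul/J over the 6 libraries, were not read as different strains.

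TRIM11 mRNA did not separate the human lines by their labels, since it stood at 12.6 FPKM in Control, 13.4 and 10.6 with TRIM11 guide 1 or 2, 13.6 and 14.2 with KDM5C guide 1 or 2, and 16.1 (DKD1) and 9.38 (DKD2) in the double knockdown. DKD1 was thus at 128% of Control, above every line without a TRIM11 guide, and the mRNA level does not check the TRIM11 labels. KDM5C stood at 30.3 FPKM in Control, 29.8 and 28.4 in the TRIM11-KD lines, and 18.8 to 22.7 in the 4 lines with a KDM5C guide, so these 4 were the lowest. Library KDM5C-KD2 stood apart, with the highest value of the 7 lines for 24.3% of genes and the lowest for 23.4%. The limma counts and calls that rest on it are given without it too, whereas spreads and correlations over the lines are not. VIM, AXL, CAV1 and CD44, genes of the mesenchymal state of MDA-MB-231, had means of 289 to 1159 FPKM, whereas of 7 genes expected low or absent ESR1, PGR and FOXA1 were below the filter and ERBB2, EPCAM, GATA3 and CDH1 passed it with means of 21.0, 8.94, 6.30 and 1.19 FPKM. In the tumors the summed level of 5 epithelial markers was 1320 to 1832 FPKM. The tumor values came from 8793199 to 11117125 reads per library, as recovered from the FPKM steps, and the depth of the human libraries is unknown.

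Both tables were led by TRIM28, the corepressor recruited by KRAB zinc finger proteins (the plot of mean levels in both species). TRIM28 was at 152 FPKM in Control, 126 and 141 in the TRIM11-KD lines, 156 and 200 in the KDM5C-KD lines, and 163 and 182 in the DKD lines. In the tumors Trim28 was at 73.0, 52.3 and 65.8 FPKM (Trim11+/+) and 60.6, 71.1 and 60.7 FPKM (Trim11+/-), with full overlap of the genotypes. The other members of the PHD and bromodomain subgroup were lower, with TRIM24, a nuclear receptor coregulator that reads histone tails, at a mean of 12.9 FPKM in the lines and 4.13 in the tumors, and TRIM33, a ligase of the SMAD pathway, at 10.4 and 13.6.

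**Figure D1:**
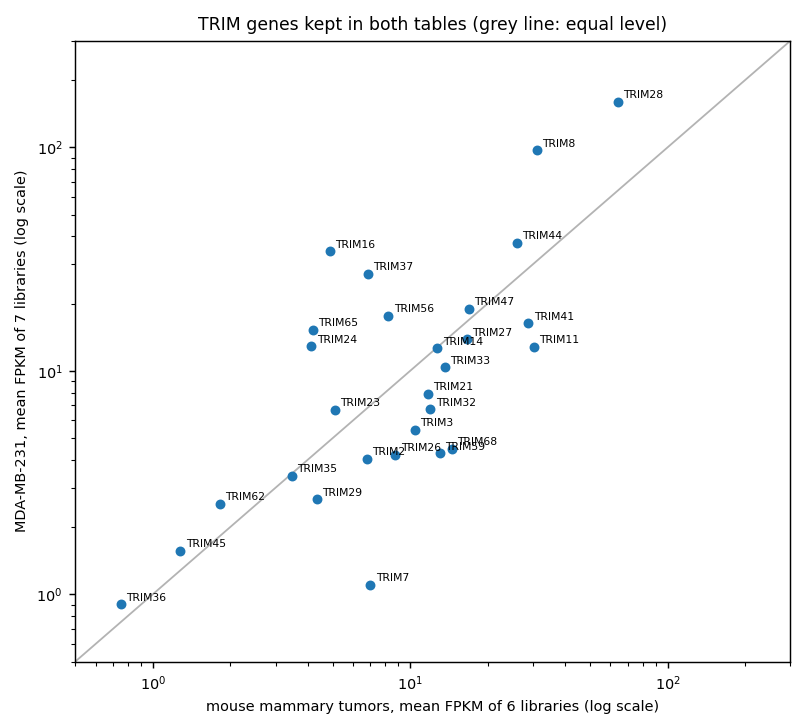
Mean FPKM over 7 MDA-MB-231 lines (vertical log axis) against mean FPKM over 6 mouse tumors (horizontal log axis) for the 28 TRIM genes that passed in both tables, with a grey line at equal values. TRIM28 leads both tables, at 160 FPKM in the lines and 63.9 FPKM in the tumors, and TRIM16 (34.3 and 4.86 FPKM) lies farthest above the line.

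TRIM8, a RING ligase of inflammatory signaling with no annotated C-terminal domain, was second in both tables. Its FPKM was 97.9 in Control, 78.7 and 99.9 in the TRIM11-KD lines, 83.5 and 89.3 in the KDM5C-KD lines, and 123 and 107 in the DKD lines. Trim8 was at 26.5, 29.8 and 35.7 FPKM in Trim11+/+ tumors and 34.6, 36.9 and 23.2 FPKM in Trim11+/- tumors, so the Trim11+/- values enclosed all of the Trim11+/+ values. TRIM44, which has a ubiquitin-binding zinc finger and no RING, varied least of the members in each table. It was at 35.6 FPKM in Control, 36.6 and 37.7 in the TRIM11-KD lines, 39.6 and 37.9 in the KDM5C-KD lines, and 38.5 and 36.7 in the DKD lines, a coefficient of variation (CV) of 3.53%. Trim44 was at 27.1, 25.5 and 25.6 FPKM in Trim11+/+ tumors and 26.7, 25.8 and 25.0 FPKM in Trim11+/- tumors, a CV of 3.02% with overlap of the genotypes. Trim41, a PRY-SPRY ligase, was at 26.5, 29.8 and 28.2 FPKM in Trim11+/+ tumors and 32.0, 28.6 and 27.8 FPKM in Trim11+/- tumors, again with overlap.

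Of the other human PRY-SPRY members, TRIM47, TRIM41, TRIM65 and TRIM27 had means of 13.9 to 19.0 FPKM and TRIM22, an interferon-induced antiviral ligase, was the lowest at 0.729. TRIM37, the MATH domain member that controls centrosomes and peroxisomes, had a mean of 27.3 FPKM in the lines and 6.83 in the tumors. The NHL repeat members TRIM2, TRIM3 and TRIM32, of which TRIM32 is mutated in a limb-girdle muscular dystrophy, lay between 4.05 and 6.72 FPKM in the lines and between 6.79 and 12.0 FPKM in the tumors. In all, 15 human and 18 mouse members exceeded 10 FPKM, and 8 human and 7 mouse members were below 2 FPKM. The median of the members' means was 6.88 FPKM in the lines, below the 11.1 FPKM of all genes that passed, and 8.75 FPKM in the tumors, above the 5.95 FPKM of all genes that passed.

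A set of 28 members passed in both tables. Across these 28 genes, which are not independent replicates and whose tables were normalized separately, the mean levels of the species had a Spearman rho of 0.599 and a Pearson r of 0.705 on the log2 scale. TRIM16 had the highest human to mouse ratio, 34.3 against 4.86 FPKM, and TRIM7 the lowest, 1.10 against 7.01 FPKM. The 10 members that passed only in the human table included the antiviral genes TRIM5 and TRIM22, and the 11 that passed only in the mouse table included Trim46, Trim25, Trim12c, Trim30a and the neighbors Trim34a and Trim34b. Some of these differences are of annotation, since 4 human entries joined a TRIM symbol to a neighboring gene and were no members. Among them were TRIM25 with MIR3614 at a mean of 40.7 FPKM, TRIM39 with RPP21 at 36.5 FPKM and TRIM34 with TRIM6 at 11.0 FPKM.

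Below the filter lay 28 human and 29 mouse symbols. Of these, 19 human and 7 mouse symbols were listed at 0 in every library, such as TRIM10, TRIM31, TRIM58 and the cluster TRIM77, TRIM49, TRIM64B, TRIM64 and TRIM49C on human chromosome 11. TRIM17, the neighbor of TRIM11 on human chromosome 1, was below the filter, at 0.0287 FPKM in Control, 0.0589 and 0.101 in the TRIM11-KD lines, 0.113 and 0.0393 in the KDM5C-KD lines, and listed at 0 in the DKD lines. TRIM46, which organizes microtubules in the axon, was below it at 0.0624 FPKM in the lines, whereas Trim46 ranked among the higher members in the tumors with a mean of 24.6 FPKM. Among TRIM proteins of other names (PML, MID1, MID2 and MEFV), 3 human and 2 mouse genes passed the filter, with summed levels of 37.7 to 47.9 FPKM in the lines and 11.3 to 16.0 FPKM in the tumors.

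The heat map of deviations from each gene's mean shows how the members varied over libraries. Their median CV was 18.7% in the lines against 16.1% for all genes that passed, and 15.8% in the tumors against 18.7%. The most variable human members were TRIM59, a membrane-bound member (CV 68.8%), TRIM22 (67.0%) and TRIM61 (61.0%). The CV of TRIM59 rests largely on KDM5C-KD2, at 10.4 FPKM against 1.61 to 4.93 FPKM in the other lines. The most variable mouse members were Trim30a, a mouse ligase of Toll-like receptor signaling (72.5%), and Trim29 (66.7%), which lacks a RING and is known from basal epithelium.

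**Figure D2:**
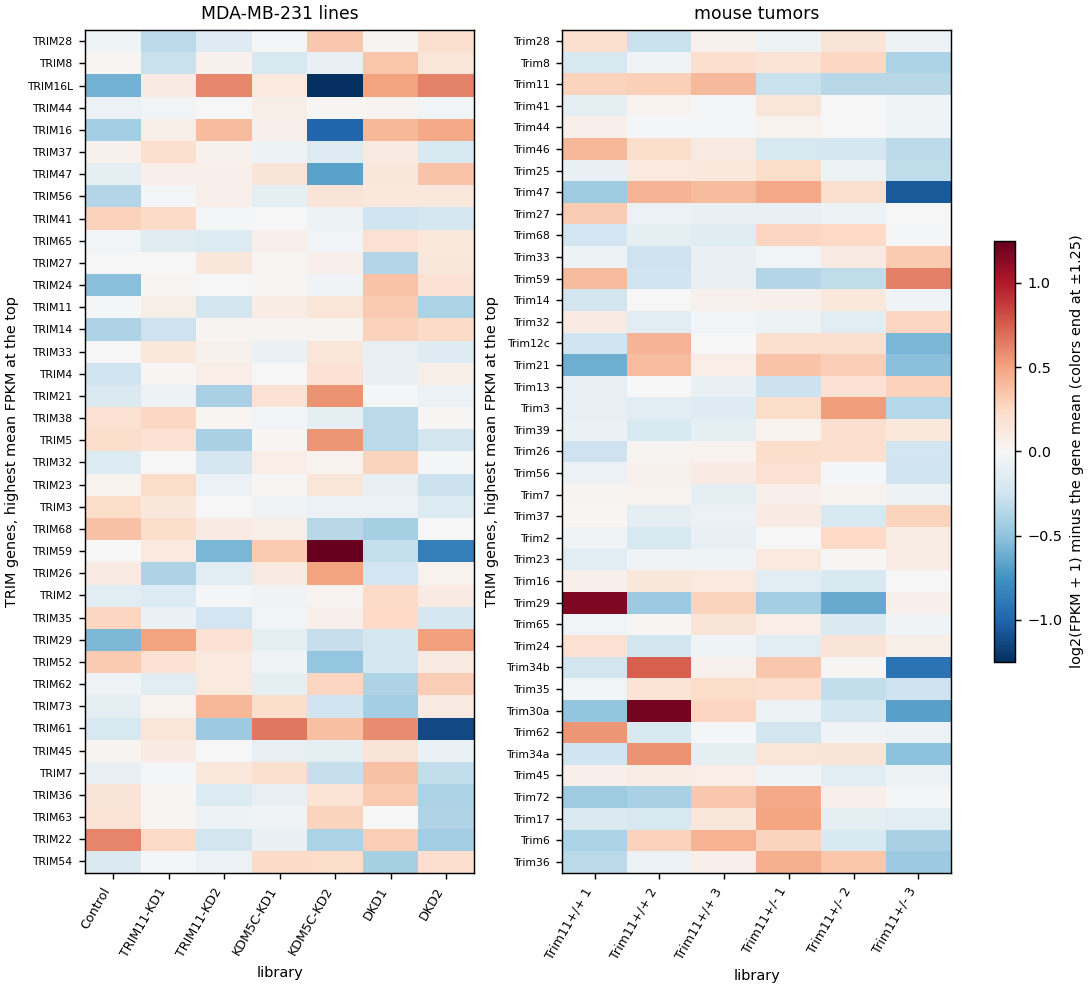
Deviation of log2(FPKM + 1) from the gene's mean over its table (color) for the 38 human and 39 mouse members, ordered by mean FPKM, in each library. Trim11 is above its mean in the 3 Trim11+/+ tumors and below it in the 3 Trim11+/- tumors, while TRIM16L and TRIM16 are lowest in KDM5C-KD2.

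In the tumors Trim11 was lower in Trim11+/- mice, and no other member changed by the study's kind of rule, means differing 1.5-fold or more with an unadjusted p under 0.05 in limma on log2(FPKM + 1). Trim11 (ENSMUSG00000020455, chr11:58978093-58991458 in mm10, plus strand) was at 35.8, 36.3 and 39.2 FPKM in Trim11+/+ tumors and at 24.0, 22.8 and 22.9 FPKM in Trim11+/- tumors. The genotypes did not overlap, and each was tight, 37.1 ± 1.84 against 23.2 ± 0.660 FPKM (SD, n = 3 each). Trim11+/- tumors were thus at 62.6% of the wild-type mean, a log2 difference of -0.65 ± 0.085 (SE) with an adjusted p of 0.199 (Benjamini-Hochberg over 17328 genes). The exact two-sided permutation test gave p = 0.1, the smallest that 3 against 3 tumors allow. Exons 2 to 6, numbered within each of the 3 annotated Trim11 transcripts, hold 76.5%, 84.3% and 21.7% of their exon bases, and the labels do not name the transcript whose numbering they use. Per library 718 to 1408 reads fell on the gene. Trim11 had the smallest p of the 39 members.

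By that rule 1 of 39 members was lower and 0 were higher, beside 1.87% and 1.74% of all genes tested. At an adjusted p under 0.05 limma called 0 members and 0.00577% of all genes, 1 gene in number. At an unadjusted p under 0.05 it had 4 members, 10.3% of them against 6.94% of all genes. At the same threshold limma voom on the recovered reads had 5 of 39 members, beside 1135 of 16841 genes. After adjustment voom had 0 members and 0 genes. The members' median log2 difference was 0.02, with 20 above 0 and 19 below, beside a median of -0.0048 over all genes. Leaving out 1 tumor added calls for 4 of the 6 tumors: lower Trim30a without Trim11+/+ 1, lower Trim29 without Trim11+/+ 2, both lower Trim46 and higher Trim72 without Trim11+/+ 3, and higher Trim36 without Trim11+/- 3.

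**Figure D3:**
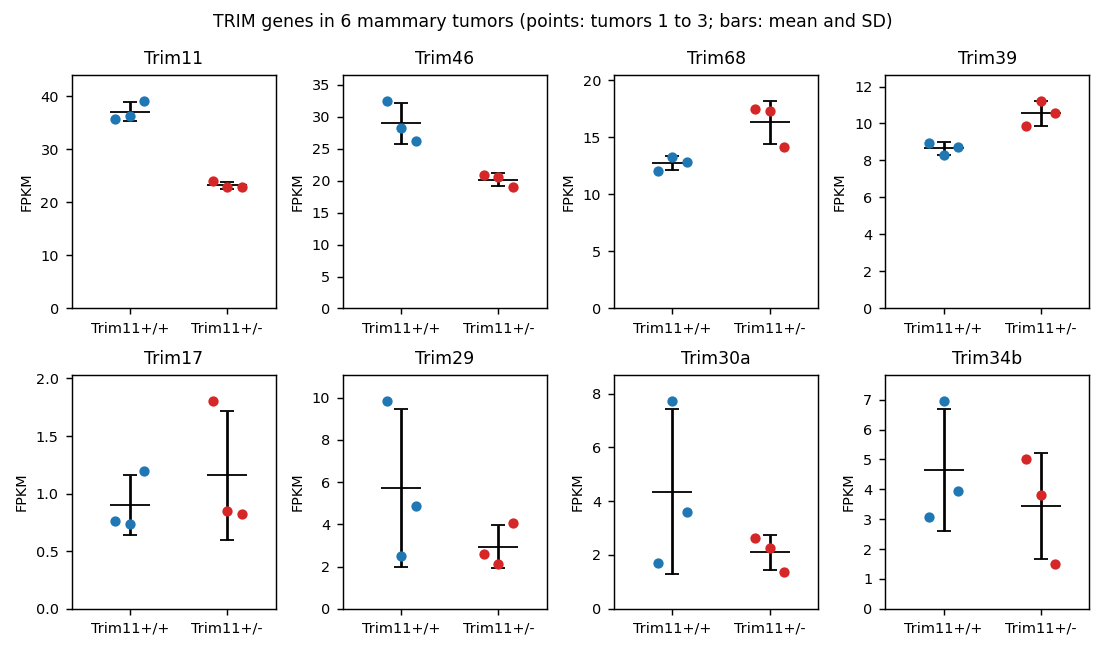
FPKM of Trim genes in each Trim11+/+ and Trim11+/- tumor (points), with the mean and SD of 3 tumors per genotype. Trim11 is at 35.8 to 39.2 FPKM in Trim11+/+ and 22.8 to 24.0 FPKM in Trim11+/- tumors.

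The other members under an unadjusted p of 0.05 were Trim46, Trim68 and Trim39, none with an adjusted p under 0.05. Trim46 (chr3:89234177-89246309 in mm10, minus strand) was at 32.5, 28.2 and 26.2 FPKM in Trim11+/+ tumors and 20.8, 20.6 and 19.0 FPKM in Trim11+/- tumors. Its values did not overlap, and the means, 29.0 ± 3.24 and 20.1 ± 1.02 FPKM (SD, n = 3 each), had a ratio of 0.695, with a log2 difference of -0.50 ± 0.11 (SE) and an adjusted p of 0.592 in limma. Of the Trim46 exon bases 6.30% overlap Krtcap2 (mean 42.9 FPKM) on the opposite strand, which libraries without strand cannot separate, so its level is uncertain. Trim68, a ligase of the androgen receptor, was at 12.1, 13.3 and 12.8 FPKM against 17.5, 17.3 and 14.2 FPKM in Trim11+/- tumors, a log2 difference of 0.33 with an adjusted p of 0.674. Trim39, a ligase of apoptosis and cell cycle regulators, was at 8.97, 8.28 and 8.72 FPKM against 9.89, 11.2 and 10.6 FPKM, a log2 difference of 0.26 with an adjusted p of 0.699. Both genes were higher in every Trim11+/- tumor than in any Trim11+/+ tumor. Trim46 stayed under an unadjusted 0.05 without each of the 6 tumors. Trim68 did not without Trim11+/+ 1, Trim11+/+ 3, Trim11+/- 1 or Trim11+/- 2, and Trim39 did not without Trim11+/+ 2, Trim11+/+ 3, Trim11+/- 2 or Trim11+/- 3.

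In all, 5 members (Trim68, Trim39, Trim33, Trim2 and Trim23, an ARF domain ligase) were higher without overlap, 12.8% of them against 6.6% of all genes. Another 4 (Trim11, Trim46, Trim16 and Trim45) were lower without overlap, 10.3% against 6.78%. Across the 6 tumors the members whose log2(FPKM + 1) followed Trim11 most closely were Trim45 (Pearson r = 0.952) and Trim46 (0.894). They stood at ranks 52 and 200 of 17327 genes, as a description over 3 tumors of each genotype.

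The other members next to Trim11 or of interest in mammary tumors did not separate the genotypes. Trim17 (chr11:58954685-58973098 in mm10, plus strand), the neighboring ligase, was at 0.759, 0.737 and 1.200 FPKM in Trim11+/+ tumors and 1.81, 0.852 and 0.822 FPKM in Trim11+/- tumors (exact permutation test, two-sided p = 0.5). Its exons share 19.0% of their bases with Hist3h2a on the same strand, so its level is uncertain. Trim29 was at 9.86, 2.52 and 4.85 FPKM against 2.62, 2.13 and 4.07 FPKM (exact permutation test, two-sided p = 0.3), with the highest value in Trim11+/+ 1. That tumor also had the highest sum of 6 basal or myoepithelial markers, 334 FPKM, against 134 and 198 in the other Trim11+/+ tumors and 95.7, 62.9 and 91.4 in the Trim11+/- tumors. The markers did not move as one. Krt5, Acta2 and Myh11 were highest in Trim11+/+ 1, whereas Krt14, Krt17 and Trp63 were highest in Trim11+/+ 3. The part of basal or myoepithelial cells in the Trim29 values was not tested, and in bulk tumors fewer cells of a type and less RNA per cell cannot be told apart.

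Members of the interferon-responsive list were spread over the genotypes. Of its 16 mouse genes 9 passed the filter, and 0 were called by limma with the 1.5-fold rule. A difference below 0 was seen in 6 of 9, with a median log2 difference of -0.10 against -0.0048 over all genes. Trim30a was at 1.71, 7.73 and 3.61 FPKM in Trim11+/+ tumors and 2.65, 2.27 and 1.38 FPKM in Trim11+/- tumors. Trim34b, from the same cluster of 10 Trim genes on mouse chromosome 7, was at 3.07, 6.97 and 3.93 FPKM against 5.01, 3.81 and 1.51 FPKM. Both were highest in Trim11+/+ 2 and lowest in Trim11+/- 3, and the genotypes overlapped. Trim34b and Trim34a are 98.7% identical over 1827 bases, so reads may be split between them.

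Of the interferon-stimulated genes that are no TRIM, 8 of 22 were called lower in Trim11+/- tumors, against 1.87% of all genes. Among these were Isg15 (log2 difference -1.36) and Bst2 (-0.85). Below 0 were 22 of 22, with a median of -0.69 against -0.0048 over all genes, though the 22 are not independent replicates. None of them had an adjusted p under 0.05 in limma. Their summed level was 209, 380 and 325 FPKM in Trim11+/+ tumors and 180, 210 and 94.0 FPKM in Trim11+/- tumors, so Trim11+/+ 2 was again the highest and Trim11+/- 3 the lowest (the plot of Trim genes against marker sums). Whether the TRIM members of the list differ from these genes was not tested.

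**Figure D4:**
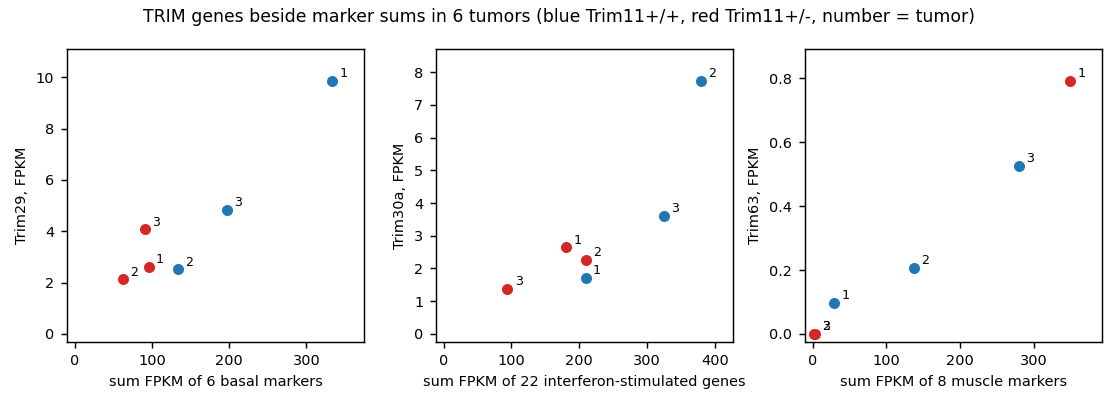
FPKM of Trim30a, Trim29 and Trim63 in the 6 tumors against the summed FPKM of interferon-stimulated, basal or myoepithelial, and skeletal muscle genes in the same tumor. Trim30a is highest where the interferon-stimulated sum is highest (380 FPKM), Trim29 where the basal sum is highest (334 FPKM), and Trim63 where the muscle sum is highest (349 FPKM), and Trim11+/- 2 and Trim11+/- 3 coincide at 0 for Trim63. Of the basal genes, Krt14, Krt17 and Trp63 are highest in Trim11+/+ 3 and not in the tumor of the highest sum.

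Of the 4 TRIM genes of striated muscle, Trim63 and Trim54 were listed at 0 in the tumors with the lowest sums of muscle markers. Trim63 (MuRF1), a ligase of sarcomere proteins, was at 0.0966, 0.208 and 0.526 FPKM in Trim11+/+ tumors and at 0.791 FPKM in Trim11+/- 1, and was listed at 0 in Trim11+/- 2 and 3. Trim54 (MuRF3) was at 0.127, 0.274 and 0.971 FPKM in Trim11+/+ tumors and 0.689 FPKM in Trim11+/- 1, and was listed at 0 in the same tumors. The sum of 8 skeletal muscle markers was 29.0, 137 and 280 FPKM in Trim11+/+ tumors and 349, 2.37 and 2.97 FPKM in Trim11+/- tumors. Trim63 and Trim54 were below the filter, and of the muscle list Trim72, a membrane repair protein, alone passed it, at 0.492, 0.529 and 1.56 FPKM against 1.81, 1.120 and 1.0002 FPKM. The last gene of the list, Trim55 (MuRF2), went the other way, at 0.138, 0.333 and 0 FPKM in Trim11+/+ tumors and 0.169, 0.470 and 0.0700 FPKM in Trim11+/- tumors, with its highest value where the marker sum was lowest. The part of muscle tissue in the Trim72 values was not tested.

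Against the Control line, with 1 Control library and no test, a member was counted as changed where each of its knockdown's lines stood 1.5 times or more above it, or below it, in FPKM. The members counted were TRIM14, TRIM16, TRIM16L and TRIM29, which lack a RING, TRIM22, TRIM54 and TRIM61, with means under 2 FPKM, and TRIM24 (the plot of members over the lines). In TRIM11-KD 2 members rose (TRIM16L and TRIM29) and 1 fell (TRIM22), 5.26% and 2.63% of 38 members, against 3.11% and 2.58% of all genes. In KDM5C-KD 2 rose (TRIM54 and TRIM61) and 1 fell (TRIM22), 5.26% and 2.63% of members, against 5.1% and 3.97% of all genes. TRIM54, at a mean of 0.586 FPKM, passed the filter only through its high values in the KDM5C-KD lines. Its membership and its count as higher thus rest on the same values. In DKD 4 rose (TRIM14, TRIM16, TRIM16L and TRIM24), 10.5% of members against 5.57% of all genes, and 0 fell, against 4.87%. The 3 counts share the Control library.

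TRIM24 (chr7:138145004-138274741 in hg19, plus strand) was at 8.52 FPKM in Control, 12.8 and 12.7 in the TRIM11-KD lines, 12.8 and 12.3 in the KDM5C-KD lines, and 16.5 and 14.5 in the DKD lines. All 6 knockdown lines were above Control, and the DKD lines were the highest, at 1.94 and 1.71 times Control. TRIM14, a mitochondrial adaptor of antiviral signaling without a RING, was at 9.29 FPKM in Control, 10.2 and 12.8 in the TRIM11-KD lines, 12.8 and 12.8 in the KDM5C-KD lines, and 15.4 and 14.9 in the DKD lines. The DKD lines were again the highest, at 1.66 and 1.600 times Control. Of the TRIM14 exon bases 7.70% overlap NANS (mean 85.2 FPKM) on the opposite strand, which libraries without strand cannot separate. The TRIM14 level is therefore uncertain, here and in the fits by guide. In all 6 lines 6 members (TRIM4, TRIM14, TRIM24, TRIM29, TRIM44 and TRIM56) were above Control, 15.8% of them against 13.6% of all genes, and 6 (TRIM3, TRIM22, TRIM35, TRIM41, TRIM52 and TRIM68) were below it, 15.8% against 16.1%.

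TRIM16 and TRIM16L moved as a pair. TRIM16 (chr17:15531274-15587625 in hg19, minus strand), an estrogen-responsive B box protein without a RING, was at 23.9 FPKM in Control, 34.2 and 43.0 in the TRIM11-KD lines, 34.1 and 15.9 in the KDM5C-KD lines, and 43.6 and 45.6 in the DKD lines. TRIM16L, its shorter paralog, was at 31.8 FPKM in Control, 52.1 and 73.7 in the TRIM11-KD lines, 52.8 and 18.01 in the KDM5C-KD lines, and 69.0 and 74.9 in the DKD lines. Both were lowest in KDM5C-KD2 and highest in DKD2, while KDM5C-KD1 was near TRIM11-KD1. Over the 7 lines their log2(FPKM + 1) values had a Pearson r of 0.998, the highest of 12635 genes compared with TRIM16. Their transcripts align over 1830 bases at 98.6% identity, and 13.5% of the 100-base windows of TRIM16L occur in TRIM16, so reads may be shared and the pair counts as uncertain.

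**Figure D5:**
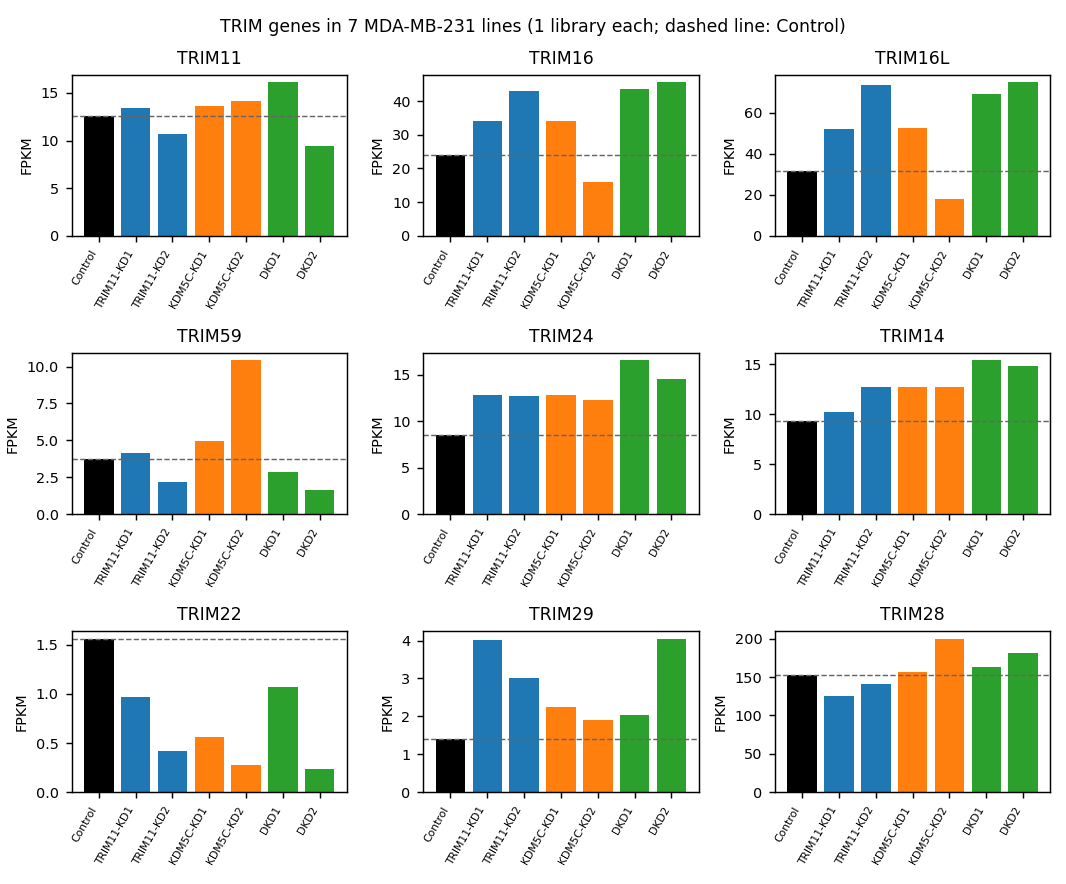
FPKM of TRIM genes in each of the 7 MDA-MB-231 lines, 1 library per line. TRIM16L and TRIM16 are lowest in KDM5C-KD2, at 18.01 and 15.9 FPKM, and TRIM24 is lowest in Control, at 8.52 FPKM.

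The remaining changed members were at low levels. TRIM29 was at 1.40 FPKM in Control, 4.02 and 3.00 in the TRIM11-KD lines, 2.24 and 1.91 in the KDM5C-KD lines, and 2.03 and 4.05 in the DKD lines, so that each knockdown line exceeded Control. TRIM22 was at 1.56 FPKM in Control, 0.971 and 0.424 in the TRIM11-KD lines, 0.566 and 0.276 in the KDM5C-KD lines, and 1.07 and 0.239 in the DKD lines, with Control the highest. TRIM61 was at 1.19 FPKM in Control, 1.79 and 0.836 in the TRIM11-KD lines, 2.99 and 2.26 in the KDM5C-KD lines, and 2.80 and 0.153 in the DKD lines, which had the widest gap within a knockdown. TRIM54, at 0.386 FPKM in Control, was at 0.547 and 0.494 in the TRIM11-KD lines, 0.846 and 0.838 in the KDM5C-KD lines, and 0.177 and 0.816 in the DKD lines. DKD1 and DKD2 lay on opposite sides of Control for both TRIM61 and TRIM54.

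Between DKD and KDM5C-KD, which differ in a TRIM11 guide and in part in the KDM5C guide, 3 members were higher in DKD and 1 lower at an unadjusted p under 0.05 in limma over the 6 knockdown lines. Both DKD lines carry KDM5C guide 2, which of the KDM5C-KD lines only KDM5C-KD2 has. The calls are 7.89% and 2.63% of members, against 5.86% and 5.8% of all genes, and at an adjusted p under 0.05 limma called 0 members and 0 genes (0%). TRIM59 (chr3:160150233-160203561 in hg19, minus strand) was at 4.93 and 10.4 FPKM in the KDM5C-KD lines and 2.85 and 1.61 FPKM in the DKD lines, beside 3.76 in Control and 4.17 and 2.19 in the TRIM11-KD lines. Its log2 difference was -1.37 ± 0.40 (SE, 2 lines each) with an adjusted p of 0.379, and 19.9% of its exon bases overlap SMC4 on the opposite strand, which libraries without strand cannot separate. The members higher in DKD were TRIM16 (log2 difference 0.90, adjusted p = 0.396), TRIM8 (0.40, adjusted p = 0.405) and TRIM16L (1.19, adjusted p = 0.415). Without KDM5C-KD2, 0 members were higher and 0 lower at an unadjusted p under 0.05. The counts were 3 higher and 4 lower without KDM5C-KD1, 1 and 3 without DKD1, and 1 and 1 without DKD2 or either TRIM11-KD line.

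By guide, a limma model of all 7 lines had a term for any KDM5C guide and a term for any TRIM11 guide. Guides 1 and 2 of a gene were not told apart, and KDM5C-KD2, DKD1 and DKD2 all carry KDM5C guide 2. In this model 5 members differed with a KDM5C guide at an unadjusted p under 0.05. Of these 3 were higher, TRIM14 (log2 difference 0.39 ± 0.10, SE), TRIM24 (0.36 ± 0.10) and TRIM28 (0.31 ± 0.12), the last 2 from the PHD and bromodomain subgroup, and 2 were lower, TRIM41 (-0.33 ± 0.099) and TRIM68 (-0.42 ± 0.16). These are 7.89% and 5.26% of members, against 5.87% and 5.18% of all genes. At an adjusted p under 0.05 limma called 0 members and 0.00791% of genes, the members' adjusted p running from 0.383 to 0.427. TRIM41 was at 20.0 FPKM in Control, 19.4 and 16.0 in the TRIM11-KD lines, 16.3 and 15.4 in the KDM5C-KD lines, and 13.4 and 13.9 in the DKD lines. TRIM68 was at 5.95 FPKM in Control, 5.27 and 4.81 in the TRIM11-KD lines, 4.66 and 3.25 in the KDM5C-KD lines, and 3.03 and 4.40 in the DKD lines. The 4 lines with a KDM5C guide were above the other 3 in TRIM28 and TRIM65, and below them in TRIM68, TRIM3, TRIM38 and TRIM52. Some gaps were very narrow. TRIM65 was at 14.82 FPKM in KDM5C-KD2 and 14.78 in Control. TRIM38 was at 7.47 in DKD2 and 7.51 in TRIM11-KD2, and TRIM52 at 2.786 and 2.800 in the same lines. The share of all genes that separate in this way was not counted, so the list is no result about the members. TRIM14 and TRIM41 stayed under an unadjusted 0.05 without each of the 7 lines, TRIM24 did not without Control, and TRIM68 did not without Control, TRIM11-KD1, KDM5C-KD2 or DKD1. TRIM28 stayed under it without KDM5C-KD1 but not without any other line. Lower members numbered 1 without Control, TRIM11-KD1 or KDM5C-KD2 and 4 without DKD2.

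With a TRIM11 guide, members were called in both directions. At an unadjusted p under 0.05, 5 members were higher, TRIM24 (log2 difference 0.38 ± 0.10, SE), TRIM16 (0.81 ± 0.24), TRIM16L (1.09 ± 0.33), TRIM29 (0.57 ± 0.22) and TRIM14 (0.25 ± 0.10). Another 3 were lower, TRIM26 (-0.39 ± 0.15), TRIM59 (-0.92 ± 0.35) and TRIM5 (-0.47 ± 0.19). These are 13.2% and 7.89% of members, against 5.19% and 5.48% of all genes, and at an adjusted p under 0.05 limma called 0 members and 0 genes, the members' adjusted p running from 0.448 to 0.467. Of the 5 members without a RING that passed the filter, 4 (TRIM14, TRIM16, TRIM16L and TRIM29) were among those higher, and TRIM44 was not. TRIM16 and TRIM16L may share reads, and the level of TRIM14 is uncertain. Whether members without a RING differ as a subgroup was not tested. TRIM16 and TRIM16L stayed under an unadjusted 0.05 without each of the 7 lines, and TRIM24 did without any line but Control. The call for TRIM26 was lost without Control, TRIM11-KD1, KDM5C-KD2 or DKD1, and that for TRIM59 without TRIM11-KD2, KDM5C-KD2, DKD1 or DKD2. The call for TRIM5 was lost without any line but TRIM11-KD1 and KDM5C-KD1, that for TRIM29 without any line but KDM5C-KD1 and DKD1, and that for TRIM14 without any line but TRIM11-KD1. Lower members numbered 0 without KDM5C-KD2 or DKD1, and without Control, TRIM11-KD2 or DKD2 the counts were 3 higher and 1 lower.

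TRIM26, an antiviral ligase encoded in the MHC region, was at 4.50 FPKM in Control, 2.90 and 3.66 in the TRIM11-KD lines, 4.51 and 6.23 in the KDM5C-KD lines, and 3.33 and 4.25 in the DKD lines. TRIM5, which recognizes retroviral capsids, was at 8.12 FPKM in Control, 7.90 and 4.93 in the TRIM11-KD lines, 6.90 and 10.5 in the KDM5C-KD lines, and 5.21 and 5.68 in the DKD lines. The 4 lines with a TRIM11 guide were below the other 3 in TRIM26 and above them in TRIM16, while TRIM5 in TRIM11-KD1 was above KDM5C-KD1. For TRIM16 the gap was very narrow, from 34.19 FPKM in TRIM11-KD1 to 34.11 in KDM5C-KD1. Here too the share of all genes without overlap was not counted, so these gaps are no result about the members. An interaction of the guides was fitted too, and 0 of 38 members had an unadjusted p under 0.05 for it in limma, against 5.49% of all genes. Of all genes 2 and of members 0 had an adjusted p under 0.05.

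Few other genes of the pathway passed the test. Of 20 human genes for ubiquitin and the E1 and E2 enzymes that RING ligases use, 17 were tested, and 1 was higher and 0 lower between DKD and KDM5C-KD at an unadjusted p under 0.05 in limma, with 0 by either guide. Of 20 mouse genes 18 were tested in the tumors, with 0 called. Of 10 interferon-responsive human TRIM genes 7 passed the filter, and TRIM69 was below it. TRIM25 and TRIM34 stood only in entries joined to other genes, at means of 40.7 and 11.0 FPKM, and were not tested as members. With a TRIM11 guide 1 was higher (TRIM14) and 2 were lower (TRIM5 and TRIM26), and with a KDM5C guide 1 was higher (TRIM14), while none of these had an adjusted p under 0.05 and 5.19% and 5.48% (TRIM11 guide) and 5.87% (KDM5C guide) of all genes were called in those directions. Of 21 other interferon-stimulated genes tested, 3 were higher (IFIH1, MX1 and MX2) and 0 lower with a TRIM11 guide, and 1 was higher (MX1) and 4 lower (DDX58, IFI44, IFIT2 and RSAD2) with a KDM5C guide, at an unadjusted p under 0.05 in limma and with 0 at an adjusted one. The summed level of all 22 on the list was 586 FPKM in Control and between 416 (DKD1) and 723 FPKM (DKD2) in the knockdown lines.

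Interferon induces such genes through the interferon-stimulated response element, here searched as GAAA, any 2 bases and GAAA on both strands, with overlapping matches counted, in RefSeq promoters of GRCh38.p14 (250 bases before to 50 after the start, 300 in all). It was found in 3.57% of 35116 promoters, and in 2.97% of the 13290 promoters of genes that passed the filter. For 27 of the 38 human members the promoter table had an entry, 37 promoters in all, and 7 members held a match in 1 promoter each (TRIM2, TRIM5, TRIM14, TRIM16, TRIM21, TRIM26 and TRIM44). Of the interferon-responsive list TRIM5, TRIM14, TRIM21 and TRIM26 held it, and TRIM38 and TRIM56 did not. These 4 are shown, since TRIM14, TRIM26 and TRIM5 are members that differed with the TRIM11 guide, in opposite directions, and TRIM21, the cytosolic antibody receptor, was not among them (6.70 FPKM in Control and 5.57 to 11.8 over the knockdown lines). All 4 are on the minus strand, at chr9:98119173-98119472 (TRIM14), chr11:4393653-4393952 (TRIM21), chr6:30213357-30213656 (TRIM26) and chr11:5685025-5685324 (TRIM5), and capitals mark the match on either strand.
TRIM14: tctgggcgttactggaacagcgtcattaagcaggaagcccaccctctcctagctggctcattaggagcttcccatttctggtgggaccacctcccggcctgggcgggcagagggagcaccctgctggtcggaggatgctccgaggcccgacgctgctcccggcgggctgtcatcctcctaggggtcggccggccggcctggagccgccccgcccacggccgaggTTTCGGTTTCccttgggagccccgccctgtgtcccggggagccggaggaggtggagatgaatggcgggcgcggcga
TRIM21: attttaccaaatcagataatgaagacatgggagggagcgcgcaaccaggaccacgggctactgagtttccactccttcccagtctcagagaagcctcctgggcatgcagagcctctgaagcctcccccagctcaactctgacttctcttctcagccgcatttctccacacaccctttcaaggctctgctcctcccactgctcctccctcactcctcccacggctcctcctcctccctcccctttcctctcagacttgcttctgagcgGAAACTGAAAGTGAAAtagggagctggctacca
TRIM26: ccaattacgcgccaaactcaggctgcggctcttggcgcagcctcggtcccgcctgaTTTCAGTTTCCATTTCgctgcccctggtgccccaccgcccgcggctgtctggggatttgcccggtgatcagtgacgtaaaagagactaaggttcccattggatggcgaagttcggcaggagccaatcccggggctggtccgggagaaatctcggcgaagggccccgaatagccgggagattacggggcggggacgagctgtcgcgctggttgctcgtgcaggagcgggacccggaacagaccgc
TRIM5: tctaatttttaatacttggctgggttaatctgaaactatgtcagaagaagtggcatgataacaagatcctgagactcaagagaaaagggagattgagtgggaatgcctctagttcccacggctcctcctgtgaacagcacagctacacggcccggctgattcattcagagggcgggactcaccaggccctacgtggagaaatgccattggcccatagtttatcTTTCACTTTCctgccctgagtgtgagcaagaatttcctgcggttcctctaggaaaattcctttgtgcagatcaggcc
The match begins at base 225 in TRIM14 and 224 in TRIM5, just before the start. TRIM21 and TRIM26 each hold 2 overlapping matches, at bases 268 and 274 after the start in TRIM21 and at bases 57 and 63 in TRIM26. A match describes these letters and shows no binding.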

How the data were processed

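RNA-seq libraries of poly(A) RNA, made without strand marking, were measured in 7 MDA-MB-231 lines and 6 mouse tumors. The authors deposited 1 FPKM table per species and, per their methods, aligned reads with HISAT2 and computed FPKM with Cufflinks on hg19 and mm10. The submitters' processing notes also list Bowtie 0.12.2. Read depth sets the error of low FPKM. For the tumors 98.8% of genes gave whole reads (tolerance 0.02) in every tumor, so reads could be recovered, whereas none could in the human table. Columns that could not be tied to a sample numbered 0.

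Rows sharing a symbol were reduced to that of highest mean, and genes under a mean of 0.5 FPKM were left out. Tests used limma 3.58.1 (R 4.3.3; lmFit, eBayes with trend) on log2(FPKM + 1) over all genes kept, with Benjamini-Hochberg adjustment. Fold changes on this scale understate changes of low genes. The fit was tested on data with known answers. Lines are single cultures and tumors single mice by their labels, so p-values measure the spread between these. Promoters are from RefSeq. Python 3.11.15, pandas 2.3.3, NumPy 2.4.6 and SciPy 1.17.1 did the rest.

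Values in every library are given for Trim11, the 5 highest members of each table, members called in any comparison (at most 8 each) and Trim17 and Trim29 in both species. Alternatives were the pseudocount, filter, scaling, fold, trend, model terms, replicate block and leaving out each library. Limma voom on recovered reads was added after seeing the data. Members and lists were chosen with earlier results of these data known.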

Additional observations from a re-analysis of the deposited data

How the results depend on the processing

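All members named at an unadjusted p under 0.05 kept their direction under every alternative run, and Trim11 also kept its side of that threshold. Its log2 difference ran from -0.68 to -0.61 over the fits without 1 tumor, and its adjusted p from 0.155 to 0.975 over all alternatives. Counts of members are small, so 1 gene moves them, and in this section they stand without the share of all genes. In the tumors 2 members were lower with no filter and 0 at a fold of 2. Between DKD and KDM5C-KD 1 was higher with only the 4 lines compared. By KDM5C guide, a model with an interaction had 1 higher and 0 lower. By TRIM11 guide, that model had 2 higher and 0 lower, 3 were higher with no covariate, and 0 were lower with no filter. Against Control, TRIM11-KD had 4 higher by the mean of both lines and 1 at a fold of 2, and lower 0 at a fold of 2, 0 with a pseudocount of 1, 0 with the filter at 1 FPKM and 3 with no filter. KDM5C-KD had 4 higher by the mean, 1 at a fold of 2, 0 with the pseudocount and 1 with the filter at 1 FPKM, and lower 3 by the mean, 0 with the filter at 1 FPKM and 3 with no filter. DKD had 1 higher at a fold of 2, and lower 4 by the mean and 3 with no filter. The cause of these shifts, beyond fewer genes or a stricter fold, was not tested.

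Without 1 library each, counts ran from 0 to 1 higher and 1 to 2 lower in the tumors, 0 to 3 and 0 to 4 between DKD and KDM5C-KD, 2 to 4 and 1 to 4 by KDM5C guide, and 3 to 5 and 0 to 3 by TRIM11 guide. With 1 line set against Control they ran from 3 to 4 and 2 to 5 (TRIM11-KD), 4 to 5 and 1 to 6 (KDM5C-KD), and 6 to 6 and 5 to 6 (DKD).

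With the replicate number as a block, 2 members were lower between DKD and KDM5C-KD and 1 by KDM5C guide, and Trim11 had a log2 difference of -0.65 with an adjusted p of 0.975 in limma. Deviations of same-numbered tumors from their genotype means correlated at -0.33, 0.038 and -0.13. Pairs of different numbers were not compared, so whether a number marks anything shared was not tested. Same-numbered lines correlated at 0.371 (TRIM11-KD and DKD), 0.273 (KDM5C-KD and DKD) and 0.088 (TRIM11-KD and KDM5C-KD). With 2 lines per group the values for numbers 1 and 2 are equal by construction.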
